A study of Mus musculus with 18 samples.

Results

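Sterol and fatty acid synthesis genes were followed in 3 subsets of macrophages of the mouse synovium, the membrane that lines the joint cavity. The subsets were compared before and after a systemic challenge with immune complexes (IC). The set holds 33 of the 24421 gene symbols in the count tables and was put together by gene name from the textbook pathways, with earlier results of these data known. It comprises 18 enzymes of the sterol branch, the sterol carrier Stard4, 5 regulators and 9 enzymes of fatty acid synthesis, desaturation and elongation. The regulators are the genes of the sterol regulatory element binding proteins (SREBPs), Srebf1 and Srebf2, and Scap, Insig1 and Insig2, whose proteins control them. Of the 33 genes, 32 passed the filter on low counts and were tested. Fads2 did not pass it and was at 0 to 6.70 CPM (counts scaled to library size) in the 18 libraries.

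The macrophages were sorted from adult wild-type C57BL/6 mice as LYVE1+CX3CR1+ cells (MHCII-, Ly6C-), MHCII+CD11c- cells and MHCII+CD11c+ cells. Each subset was taken from control mice and from mice given ovalbumin complexed with rabbit antibody to ovalbumin by intravenous injection 8 h earlier, with 3 libraries in each of the 6 groups. Each library pooled cells from the legs of several mice, so the spread between libraries is that between pools. The control mice are labelled healthy and are called untreated here, although the labels do not say whether they received a mock injection, and no library with ovalbumin or antibody alone was analysed here. Libraries of mice lacking Fcgr2b were not analysed here.

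Cholesterol is built from acetyl-CoA by way of mevalonate, the isoprenoid farnesyl diphosphate, squalene and lanosterol, and long-chain fatty acids are built from cytosolic acetyl-CoA that ATP citrate lyase makes from citrate. The genes of both branches are targets of the SREBP transcription factors, of which SREBP-2 (Srebf2) acts mainly on sterol genes and SREBP-1 (Srebf1) mainly on fatty acid genes. SREBPs are carried by SCAP (Scap) from the endoplasmic reticulum to the Golgi for cleavage when membrane sterol is low, and the INSIG proteins (Insig1, Insig2) retain the complex when sterol is plentiful. Macrophages take up lipid with the particles and cells they engulf, and this pathway is adjusted together with the liver X receptor (LXR) programme of cholesterol export.

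Library totals ran from 245903 to 2172358 counts. The 3 MHCII+CD11c- IC libraries were the shallow end, with 381217, 245903 and 973951 counts, where 3 counts correspond to 7.84, 11.3 and 3.004 CPM. The 5 macrophage genes examined summed to 2605 to 5165 CPM in 17 libraries and to 2033 CPM in MHCII+CD11c- IC replicate 2, the shallowest one, where Csf1r was at 746 CPM against 2068 and 2202 CPM in its group. H2-Ab1 (an MHC class II chain) was at 20.1 to 44.3 CPM in the LYVE1+CX3CR1+ libraries and at 2670 to 7825 CPM in the others, and Itgax (CD11c) was at 240.0 to 382.6 CPM in the MHCII+CD11c+ libraries. In MHCII+CD11c- macrophages Itgax was at 2.32 to 13.3 CPM in the untreated libraries and at 31.0 to 70.6 CPM after IC. Lyve1 was at 329 to 439 CPM before and 1001 to 1232 CPM after IC in MHCII+CD11c+ cells, at 702 to 882 and 516 to 2290 CPM in MHCII+CD11c- cells, and at 2171 to 3555 CPM in the LYVE1+CX3CR1+ libraries. Levels are CPM with library sizes scaled by the trimmed mean of M values (TMM), fold changes are on the log2 scale with their SE, and a difference was called at an adjusted p below 0.05 in edgeR's quasi-likelihood test over 10550 genes.

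**Figure D1:**
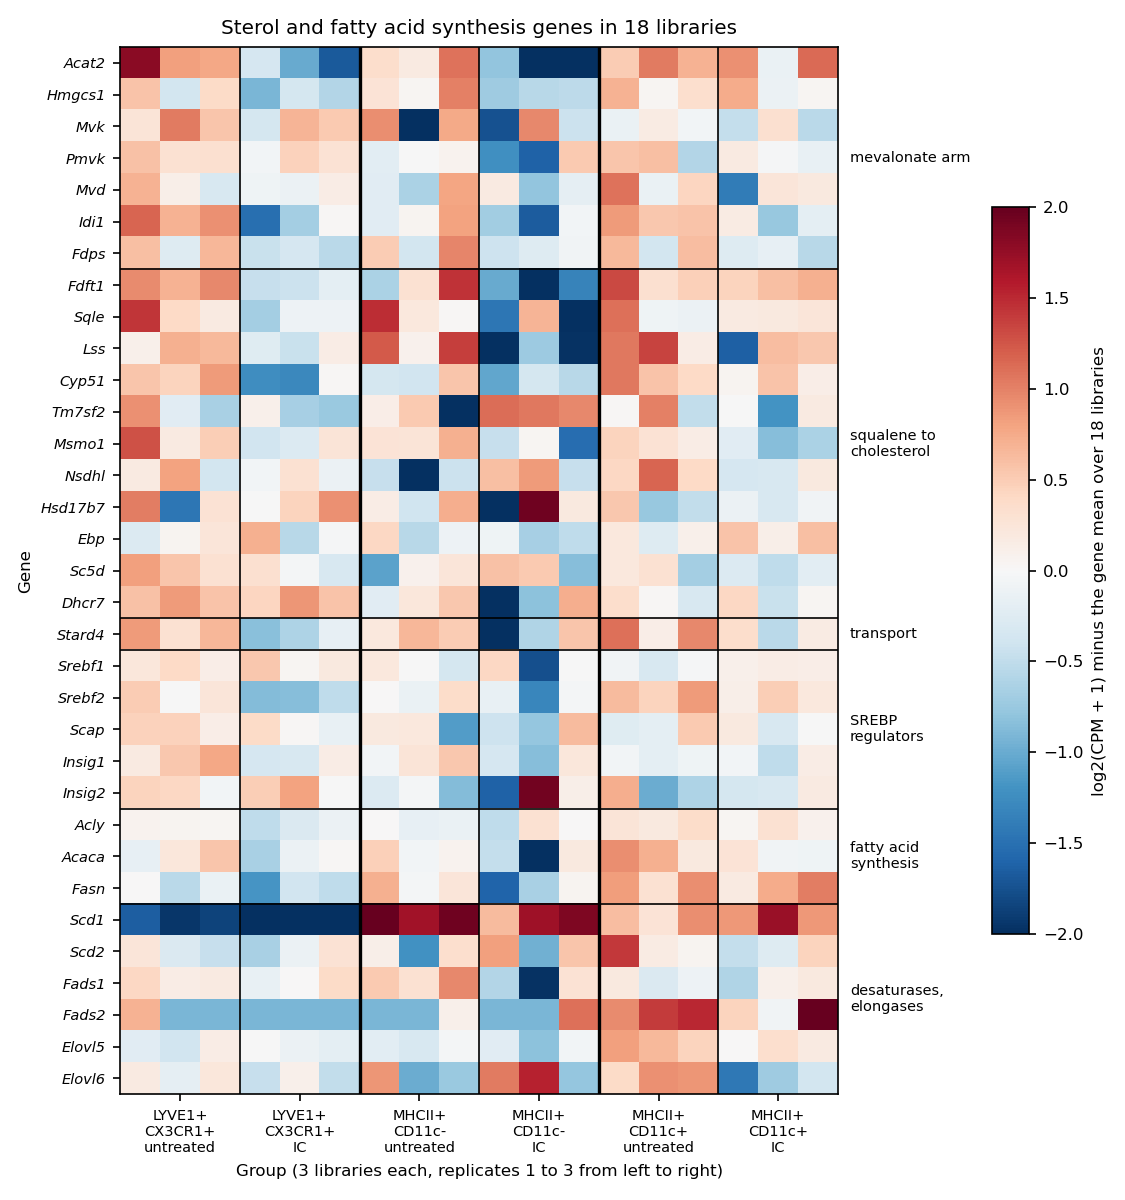
Heat map of the 33 genes (rows, ordered by pathway step) in the 18 libraries (columns, by group), coloured by log2(CPM + 1) minus the mean of each gene over the 18 libraries, with the colour scale ending at -2 and 2. Scd1 separates the LYVE1+CX3CR1+ libraries from the other 12, and most rows of the sterol branch are lighter or bluer in the IC columns than in the untreated columns of the same subset.

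Averaged over the 3 subsets, 9 of the 32 genes tested fell at 8 h after IC and none rose. These were Acat2, Hmgcs1, Idi1 and Fdps of the mevalonate arm, Fdft1, Lss, Cyp51 and Msmo1 of the arm from squalene to cholesterol, and the regulator Srebf2. Thus 8 of the 18 sterol enzymes and 0 of the 8 fatty acid enzymes tested fell. Of all 10550 genes tested, 3.09% fell and 6.21% changed in either direction in this comparison. The median log2 difference of the 18 sterol enzymes was -0.56, that of the 8 fatty acid enzymes tested was -0.38, and that of all genes was -0.01. DESeq2's Wald test called 10 of the genes in this comparison, the same 9 and Stard4. Both tests treat the libraries of the 3 subsets as independent. The labels do not say whether same-numbered libraries of the 3 subsets come from the same pool of mice. If they do, this comparison rests on 3 pools per treatment and its adjusted p may be too small.

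The promoters of 4 genes that fell are shown because sterol genes are known to carry short motifs close to their start sites and these 4 span the mevalonate arm, the squalene arm and the regulators. They run from 250 bases before to 50 bases after the annotated start (RefSeq, GRCm38.p6), and capitals mark CCAAT boxes on either strand (CCAAT or ATTGG) and, in Hmgcs1, the letters of the classical sterol regulatory element (TCACNCCAC).
Hmgcs1 (chr13:119690101-119690400, + strand): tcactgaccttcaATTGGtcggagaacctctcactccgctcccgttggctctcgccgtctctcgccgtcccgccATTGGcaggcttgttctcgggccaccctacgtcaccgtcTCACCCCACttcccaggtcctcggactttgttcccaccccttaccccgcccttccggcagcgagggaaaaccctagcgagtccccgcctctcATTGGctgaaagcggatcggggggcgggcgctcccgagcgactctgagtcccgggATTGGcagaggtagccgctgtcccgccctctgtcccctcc
Idi1 (chr13:8885356-8885655, + strand): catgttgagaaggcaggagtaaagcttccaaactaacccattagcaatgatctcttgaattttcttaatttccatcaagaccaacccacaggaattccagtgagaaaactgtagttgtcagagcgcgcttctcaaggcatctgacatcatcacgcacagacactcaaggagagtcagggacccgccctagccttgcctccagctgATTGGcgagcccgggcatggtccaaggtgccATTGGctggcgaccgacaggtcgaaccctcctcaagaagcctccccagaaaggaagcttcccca
Cyp51 (chr5:4104648-4104947, - strand): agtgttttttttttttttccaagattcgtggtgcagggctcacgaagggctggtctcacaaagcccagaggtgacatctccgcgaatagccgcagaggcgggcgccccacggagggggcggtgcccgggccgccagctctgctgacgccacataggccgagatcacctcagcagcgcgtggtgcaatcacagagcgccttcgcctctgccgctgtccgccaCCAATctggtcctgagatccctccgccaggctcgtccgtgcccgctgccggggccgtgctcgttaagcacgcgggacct
Srebf2 (chr15:82147019-82147318, + strand): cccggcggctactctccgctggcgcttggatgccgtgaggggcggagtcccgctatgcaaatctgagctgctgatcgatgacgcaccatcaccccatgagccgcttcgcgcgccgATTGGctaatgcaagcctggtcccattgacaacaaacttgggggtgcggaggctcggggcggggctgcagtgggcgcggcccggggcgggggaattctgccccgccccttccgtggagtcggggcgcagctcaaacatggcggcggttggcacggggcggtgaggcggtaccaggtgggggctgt

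Promoter windows were found for 26 of the 33 genes, in 34 windows, some genes having several. Sqle, Fdft1, Fdps, Scd1, Scd2, Fads1 and Stard4 had no entry. The sterol regulatory element letters, on either strand, were present in 1 of the 34 windows (2.94%), that of Hmgcs1, where they began 137 bases before the start, and in 1.24% of all 32851 windows. The CCAAT box, the letters bound by nuclear factor Y, was present in 22 of the 34 windows of these genes (64.7%) and in 37.4% of all windows. Hmgcs1 had 4 copies, Idi1 had 2, beginning 45 and 14 bases before the start, Cyp51 had 1 at 29 bases and Srebf2 had 1 at 135 bases. The GC box GGGCGG, on either strand, was present in 25 of the 34 windows (73.5%) and in 35.7% of all windows, with 5 copies in Srebf2 and 3 in Hmgcs1. The fatty acid gene Fasn, which did not pass the test after IC, had 3 CCAAT boxes, 2 of which overlap on opposite strands, so these letters were not particular to the genes that fell.

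In the mevalonate arm, Idi1, the isomerase that makes dimethylallyl diphosphate (chr13:8885501-8892451, + strand, GRCm38), fell in the average over subsets. It was at 59.3, 42.6 and 49.5 CPM in the untreated LYVE1+CX3CR1+ libraries and at 8.46, 15.8 and 26.4 CPM after IC. In MHCII+CD11c- cells it was at 22.1, 26.9 and 46.0 CPM before and 15.7, 7.53 and 25.0 CPM after IC. In MHCII+CD11c+ cells it was at 47.8, 38.1 and 39.1 CPM before and 29.3, 14.9 and 22.5 CPM after IC. The untreated and IC libraries did not overlap in the LYVE1+CX3CR1+ and MHCII+CD11c+ subsets and overlapped in MHCII+CD11c- cells. Idi1 fell by 1.09 (SE 0.23, adjusted p = 0.00374) over the 3 subsets, and the call was kept in all 18 fits that each left out 1 library.

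Hmgcs1, which condenses acetoacetyl-CoA and acetyl-CoA to HMG-CoA (chr13:119690379-119708260, + strand), was at 58.6, 30.1 and 51.7 CPM in untreated LYVE1+CX3CR1+ libraries and at 20.3, 30.6 and 25.9 CPM after IC, with 1 library of each treatment at the same level. In MHCII+CD11c- cells it was at 47.7, 40.3 and 79.7 CPM before and 23.5, 26.4 and 27.0 CPM after IC, with no overlap. In MHCII+CD11c+ cells the IC libraries, at 66.3, 36.2 and 40.2 CPM, overlapped the untreated ones at 64.1, 40.1 and 49.7 CPM. The treatments were thus apart only in MHCII+CD11c- cells. Hmgcs1 fell by 0.71 (SE 0.19, adjusted p = 0.0223). The call was lost without untreated replicate 1 of the MHCII+CD11c+ or LYVE1+CX3CR1+ cells, without untreated replicate 3 of the MHCII+CD11c- cells, without IC replicate 1 of the LYVE1+CX3CR1+ cells or without IC replicate 2 of the MHCII+CD11c+ cells, with an adjusted p of 0.0515 to 0.0652.

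Fdps, the synthase of farnesyl diphosphate (chr3:89093588-89101959, - strand), was at 48.5, 26.3 and 50.6 CPM in untreated LYVE1+CX3CR1+ libraries and at 23.1, 24.8 and 21.6 CPM after IC. It was at 45.3, 24.4 and 63.3 CPM before and 23.5, 26.4 and 30.0 CPM after IC in MHCII+CD11c- cells. It was at 50.4, 24.3 and 49.2 CPM before and 26.2, 28.3 and 21.3 CPM after IC in MHCII+CD11c+ cells. Untreated replicate 2 was low in each subset and lay near the level of the IC libraries. Fdps fell by 0.76 (SE 0.20, adjusted p = 0.0227), and the call was lost without untreated replicate 3 of any subset or without IC replicate 3 of the MHCII+CD11c+ cells (adjusted p = 0.0504 to 0.0653). In the GENCODE M21 annotation 1124 bases of its exons are shared with the same-strand gene model Gm43738, so its reads may be split between the 2 models.

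Acat2, the cytosolic thiolase at the entry of the pathway (chr17:12942890-12960747, - strand), was a low gene. It was at 20.9, 10.03 and 9.69 CPM in untreated LYVE1+CX3CR1+ libraries and at 3.95, 2.11 and 0.96 CPM after IC, and at 7.88, 11.8 and 9.16 CPM before and 10.8, 4.72 and 12.8 CPM after IC in MHCII+CD11c+ cells. In MHCII+CD11c- cells it had 6, 5 and 12 counts in the untreated libraries and 1, 0 and 0 counts after IC. The latter are at or under the floor of 3 counts in each library, against which its untreated level was at least 1.145-fold higher. Acat2 fell by 2.03 (SE 0.48, adjusted p = 0.0109) over the 3 subsets, a fitted size that depends on how counts of 0 are treated. The other 3 enzymes of the arm, Mvk, Pmvk and Mvd, were fitted at -0.35, -0.20 and -0.40 with adjusted p of 0.673, 0.772 and 0.496.

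**Figure D2:**
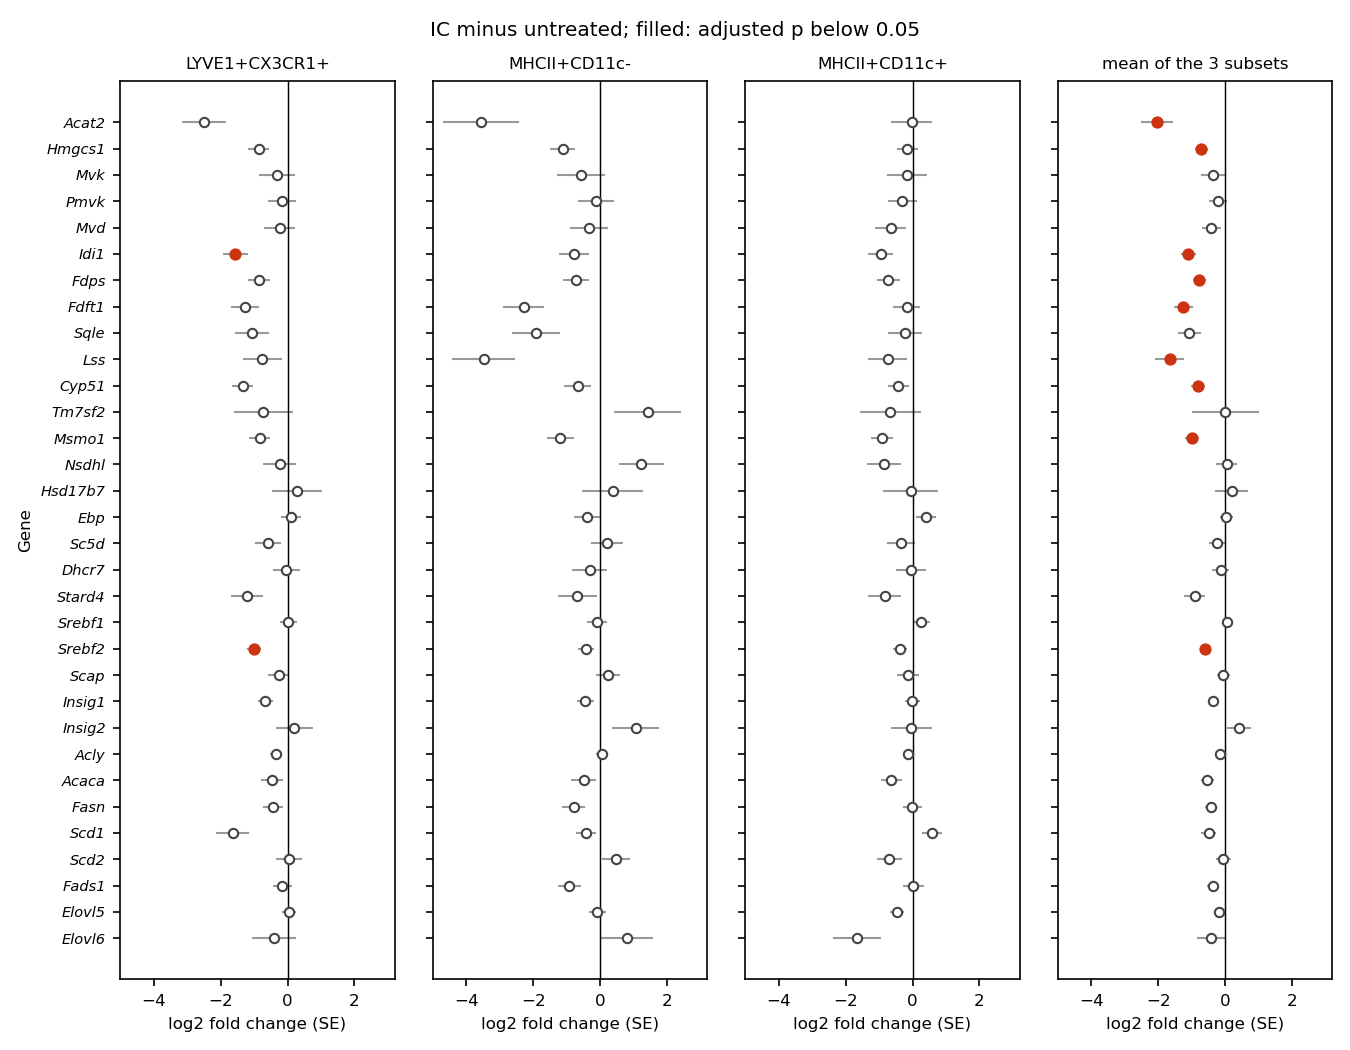
Log2 fold change of IC against untreated (x axis, points, with bars of 1 SE) for the 32 genes tested (y axis) in each subset and as the mean of the 3 subsets, with filled points for an adjusted p below 0.05. In the panel of the mean, the 9 filled points lie between -2.03 and -0.60, and the fatty acid genes at the foot of each panel are open.

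From squalene onwards, Msmo1, the sterol C4-methyl oxidase (chr8:64718139-64733792, - strand), had a lower mean after IC in every subset. It was at 89.6, 41.4 and 51.7 CPM in untreated LYVE1+CX3CR1+ libraries and at 27.6, 30.1 and 43.7 CPM after IC. It was at 44.2, 44.0 and 60.3 CPM before and 26.1, 37.6 and 12.02 CPM after IC in MHCII+CD11c- cells. In MHCII+CD11c+ cells it was at 49.9, 44.7 and 40.5 CPM before and 30.9, 19.7 and 23.1 CPM after IC. The groups did not overlap in either MHCII+ subset, and 1 pair of libraries crossed in the LYVE1+CX3CR1+ cells. Msmo1 fell by 0.98 (SE 0.20, adjusted p = 0.00368), a call kept in all 18 fits without 1 library.

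Cyp51, the lanosterol 14-alpha demethylase (chr5:4081145-4104746, - strand), was at 57.3, 53.3 and 70.5 CPM in untreated LYVE1+CX3CR1+ libraries and at 15.8, 15.3 and 39.4 CPM after IC. It was at 30.2, 29.3 and 57.2 CPM before and 18.3, 30.1 and 26.0 CPM after IC in MHCII+CD11c- cells, and at 81.4, 57.9 and 51.6 CPM before and 40.1, 58.2 and 42.6 CPM after IC in MHCII+CD11c+ cells. Only the LYVE1+CX3CR1+ libraries were apart by treatment. Cyp51 fell by 0.81 (SE 0.20, adjusted p = 0.0153), with the call lost only without untreated replicate 3 of the MHCII+CD11c- cells (adjusted p = 0.0525).

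Fdft1, the squalene synthase that commits farnesyl diphosphate to sterols (chr14:63145150-63179578, - strand), was at 33.02, 27.6 and 33.4 CPM in untreated LYVE1+CX3CR1+ libraries and at 11.8, 12.1 and 14.4 CPM after IC. In MHCII+CD11c- cells it was at 10.5, 20.8 and 47.0 CPM before and at 7.84, 0 and 6.01 CPM after IC, the last from 3, 0 and 6 counts. In MHCII+CD11c+ cells the untreated libraries at 43.1, 21.0 and 23.6 CPM overlapped the IC libraries at 23.1, 25.9 and 28.0 CPM. The treatments were thus apart in 2 of the 3 subsets. Fdft1 fell by 1.25 (SE 0.28, adjusted p = 0.00707). Its exons share 774 bases with Ctsb, the gene of the lysosomal protease cathepsin B, on the opposite strand, and the strand setting of the counting is not given in the sources used here, so reads of the 2 genes could be mixed.

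Lss, the lanosterol synthase (chr10:76531588-76557138, + strand), was at 7.41, 11.9 and 11.3 CPM in untreated LYVE1+CX3CR1+ libraries and at 5.64, 4.74 and 7.68 CPM after IC. It was at 15.2, 19.1 and 7.72 CPM before and 1.54, 11.01 and 10.4 CPM after IC in MHCII+CD11c+ cells. In MHCII+CD11c- cells it had 15, 6 and 19 counts before and 0, 1 and 1 counts after IC. Against a floor of 3 counts in each library, its untreated level there was at least 1.995-fold higher. Lss fell by 1.66 (SE 0.42, adjusted p = 0.0163) over the 3 subsets, with the call lost only without IC replicate 3 of the MHCII+CD11c- cells (adjusted p = 0.0535).

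Sqle, the squalene epoxidase, was fitted at -1.07 (SE 0.34, adjusted p = 0.0584). The other 6 enzymes of this arm, Tm7sf2, Nsdhl, Hsd17b7, Ebp, Sc5d and Dhcr7, were fitted between -0.24 and 0.20 with adjusted p of 0.664 to 1. The 8 enzymes that fell therefore stood beside 10 sterol enzymes that did not pass the test. Stard4, a carrier that moves cholesterol between membranes, was fitted at -0.91 (SE 0.30, adjusted p = 0.0747).

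**Figure D3:**
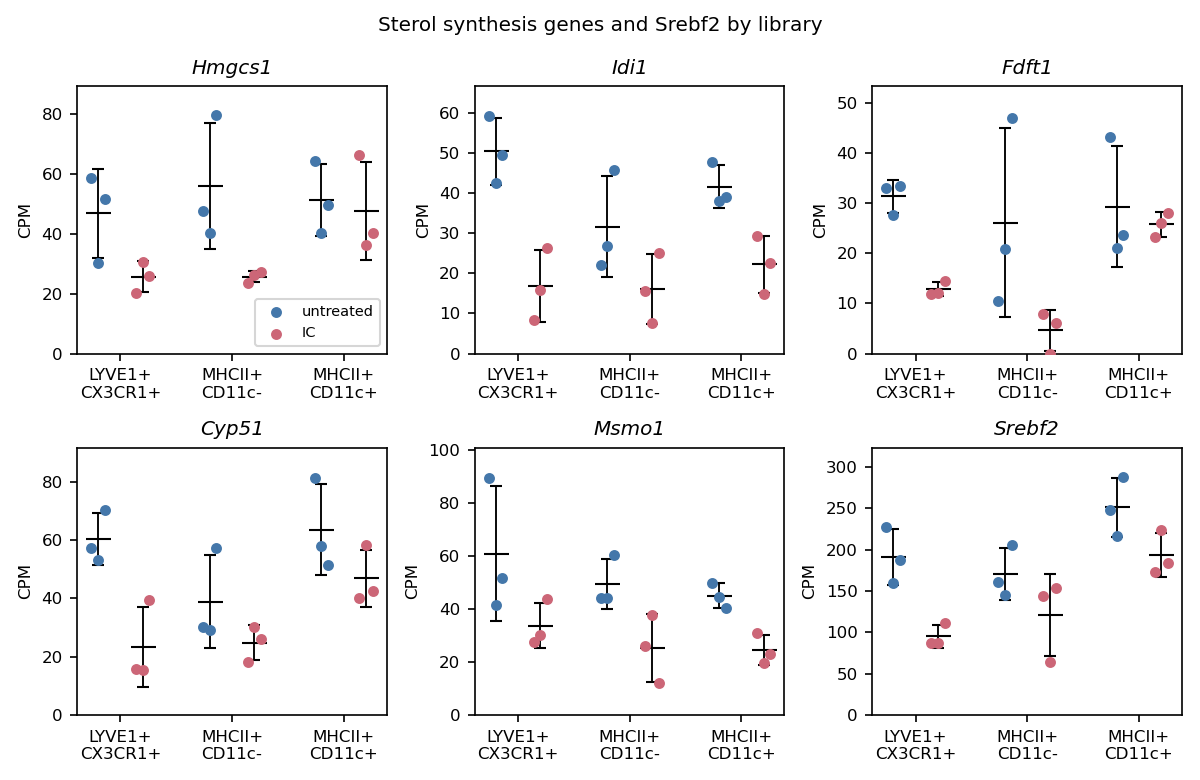
Levels (y axis, CPM) of Hmgcs1, Idi1, Fdft1, Cyp51, Msmo1 and Srebf2 in each library by subset (x axis) and treatment (blue, untreated, red, IC), with the mean and SD of 3 libraries. The blue and red points of Srebf2 do not overlap in the LYVE1+CX3CR1+ subset (159 to 227 against 86.8 to 111 CPM), and those of Msmo1 do not overlap in the MHCII+ subsets.

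Among the regulators, Srebf2 (chr15:82147181-82205379, + strand) was the member that fell. It was at 227, 159 and 188 CPM in the untreated LYVE1+CX3CR1+ libraries and at 86.8, 87.5 and 111 CPM after IC. It was at 160, 146 and 205 CPM before and 144, 64.0 and 154 CPM after IC in MHCII+CD11c- cells, and at 248, 217 and 288 CPM before and 173, 223 and 184 CPM after IC in MHCII+CD11c+ cells. The treatments were apart in LYVE1+CX3CR1+ cells and overlapped in the other two subsets. Srebf2 fell by 0.60 (SE 0.13, adjusted p = 0.00479) over the 3 subsets, and the call was kept in all 18 fits without 1 library.

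Insig1, itself a sterol-responsive gene, was at 116, 150 and 176 CPM in untreated LYVE1+CX3CR1+ libraries and at 81.2, 81.7 and 114 CPM after IC. It was at 98.8, 124 and 150 CPM before and 81.1, 56.5 and 120 CPM after IC in MHCII+CD11c- cells, and at 98.8, 89.4 and 96.5 CPM before and 98.7, 71.6 and 114 CPM after IC in MHCII+CD11c+ cells. Only the LYVE1+CX3CR1+ libraries were apart by treatment, and the difference over the 3 subsets did not pass the test (-0.37, SE 0.14, adjusted p = 0.12). Insig1 was called lower over the 3 subsets without IC replicate 3 of the MHCII+CD11c- cells, and within LYVE1+CX3CR1+ cells in a fit of only the libraries compared.

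The other regulators did not pass the test in any IC comparison. Srebf1 was at 77.5, 87.8 and 73.2 CPM before and 97.0, 68.0 and 76.3 CPM after IC in LYVE1+CX3CR1+ cells, at 76.7, 66.0 and 52.1 CPM before and 88.9, 18.8 and 66.1 CPM after IC in MHCII+CD11c- cells, and at 63.0, 53.2 and 65.1 CPM before and 71.0, 73.9 and 73.1 CPM after IC in MHCII+CD11c+ cells. The IC libraries lay above the untreated ones in MHCII+CD11c+ cells and overlapped them elsewhere, and the difference over the 3 subsets was 0.07 (SE 0.16, adjusted p = 0.884). Scap was at 63.4, 62.7 and 50.1 CPM before and 59.8, 46.4 and 40.8 CPM after IC in LYVE1+CX3CR1+ cells, at 52.3, 52.6 and 20.4 CPM before and 34.0, 26.4 and 71.1 CPM after IC in MHCII+CD11c- cells, and at 38.4, 39.4 and 66.1 CPM before and 52.5, 36.2 and 45.1 CPM after IC in MHCII+CD11c+ cells. Insig2 was at 14.2, 13.8 and 9.69 CPM before and 14.7, 18.4 and 10.1 CPM after IC in LYVE1+CX3CR1+ cells, at 8.14, 9.78 and 5.11 CPM before and 2.62, 41.4 and 11.02 CPM after IC in MHCII+CD11c- cells, and at 17.3, 4.60 and 6.27 CPM before and 7.71, 7.87 and 11.6 CPM after IC in MHCII+CD11c+ cells. Treated and untreated libraries overlapped for Scap and Insig2 in every subset, and the fits over the 3 subsets were -0.05 (SE 0.20) and 0.41 (SE 0.36).

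The 8 fatty acid enzymes tested were all fitted below 0 over the 3 subsets, between -0.53 (Acaca, SE 0.20, adjusted p = 0.115) and -0.06 (Scd2, SE 0.22, adjusted p = 0.94), and 0 were called by edgeR and by DESeq2's Wald test. At an unadjusted p below 0.05 there were 3. Without IC replicate 3 of the MHCII+CD11c- cells, Acaca and Fasn were called lower over the 3 subsets and Fads1 was called within MHCII+CD11c- cells. Acly, Acaca and Fasn, the chain from citrate to palmitate, were fitted at -0.14, -0.53 and -0.42. A miss of the threshold does not show that these genes were level, and the fits of the 2 branches were not tested against each other.

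Summed over the 18 enzymes, the sterol branch was at 624, 458 and 515 CPM in untreated LYVE1+CX3CR1+ libraries and at 297, 312 and 354 CPM after IC. The sum was 428, 330 and 572 CPM before and 238, 316 and 259 CPM after IC in MHCII+CD11c- cells, and 590, 435 and 417 CPM before and 396, 351 and 378 CPM after IC in MHCII+CD11c+ cells. Every IC library thus lay below every untreated library of its subset. The 9 fatty acid enzymes summed to 506 to 573 CPM before and 378 to 521 CPM after IC in LYVE1+CX3CR1+ cells, 553 to 758 and 510 to 711 CPM in MHCII+CD11c- cells, and 692 to 922 and 568 to 741 CPM in MHCII+CD11c+ cells, with overlap in each. In bulk RNA, fewer cells that make a transcript and less of it per cell cannot be told apart.

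**Figure D4:**
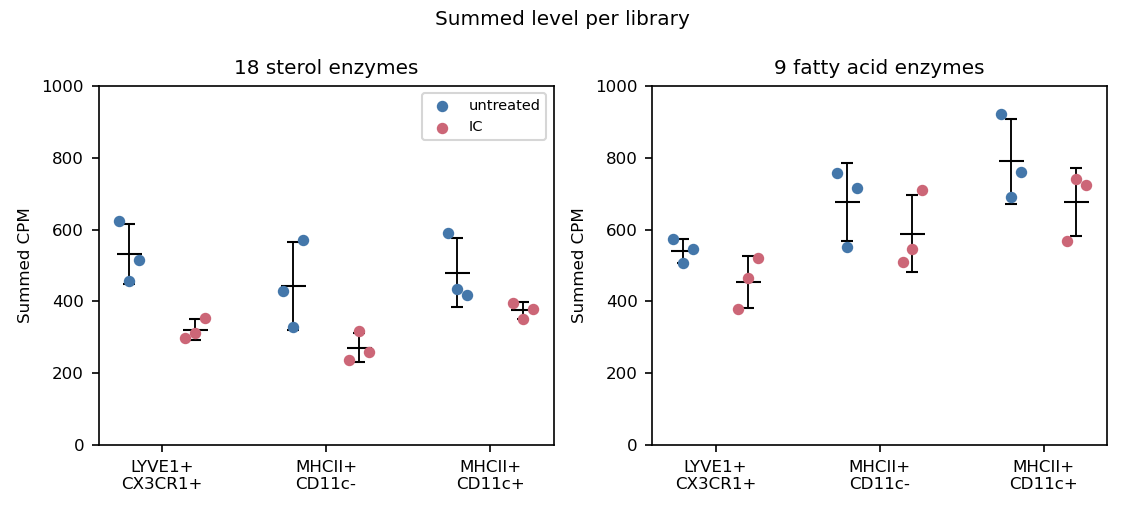
Summed level (y axis, CPM) of the 18 sterol enzymes and of the 9 fatty acid enzymes in each library by subset (x axis) and treatment (colour), with the mean and SD of 3 libraries. The red points of the sterol sum (238 to 396 CPM) lie below the blue points of the same subset, and those of the fatty acid sum overlap them.

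Within single subsets the calls were few. In LYVE1+CX3CR1+ cells Idi1 fell by 1.56 (SE 0.36, adjusted p = 0.0452) and Srebf2 by 1.004 (SE 0.22, adjusted p = 0.0306), so that 2 of 32 genes were called, both lower, against 0.464% of all genes called and 0.218% called lower. Both calls were lost when any single library of this comparison other than IC replicate 3 was left out, with adjusted p of 0.0932 to 0.425 for Idi1 and 0.0519 to 0.261 for Srebf2. Of the genes not called there, Cyp51 was fitted at -1.35 (SE 0.33, adjusted p = 0.0686), Acat2 at -2.50 (SE 0.66, adjusted p = 0.121), Fdft1 at -1.28 (SE 0.41, adjusted p = 0.243) and Stard4 at -1.21 (SE 0.49, adjusted p = 0.427). DESeq2's Wald test called 3, with Cyp51 as the third, and Cyp51 was also called with no filter on low counts, with 1 surrogate variable, in a fit of only the libraries compared and without the 2 shallowest libraries.

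In MHCII+CD11c- cells edgeR called 0 of the 32 genes, against 1.06% of all genes, with 8 at an unadjusted p below 0.05 and all 8 lower, and DESeq2's Wald test called 1, Fdft1. In MHCII+CD11c+ cells edgeR called 0, against 0.673% of all genes, with 5 at an unadjusted p below 0.05 and all 5 lower, and the Wald test called 0. The median of the 18 sterol enzymes was -0.74 in LYVE1+CX3CR1+ cells, -0.62 in MHCII+CD11c- cells (-0.48 with Acat2 and Lss set to their bound) and -0.32 in MHCII+CD11c+ cells, where the medians of all genes were -0.02, -0.01 and -0.01.

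All 3 IC libraries lay below all 3 untreated libraries for 6 of the 18 sterol enzymes in LYVE1+CX3CR1+ cells (Acat2, Idi1, Fdps, Fdft1, Sqle and Cyp51), where 9.46% of all genes did so. This held for 5 in MHCII+CD11c- cells (Acat2, Hmgcs1, Fdft1, Lss and Msmo1), against 8.56% of all genes, and for 3 in MHCII+CD11c+ cells (Idi1, Msmo1 and Nsdhl), against 9.94%. The reverse order was seen for 1 sterol enzyme, Tm7sf2 in MHCII+CD11c- cells, at 2 to 7 counts in a library after IC.

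Whether the IC response differed between subsets was tested directly. Between LYVE1+CX3CR1+ and MHCII+CD11c- cells 0 genes of the set were called by edgeR (0% of all genes, 2 of the set at an unadjusted p below 0.05), between LYVE1+CX3CR1+ and MHCII+CD11c+ cells 0 (0.00948% of all genes, 3 of the set), and between MHCII+CD11c+ and MHCII+CD11c- cells 0 (0.00948% of all genes, 7 of the set). DESeq2's Wald test called 0 in each. The smallest unadjusted p was that of Scd1, for which the response in LYVE1+CX3CR1+ minus that in MHCII+CD11c+ cells was -2.23 (SE 0.57, adjusted p = 0.645). It became a call when no filter on low counts was applied. A response of these genes particular to 1 subset was therefore not shown.

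Markers of other cells moved with the treatment. Myelinating Schwann cells are rich in sterol synthesis, and the 9 Schwann cell genes examined summed to 590.1 to 765 CPM before and 534 to 571 CPM after IC in LYVE1+CX3CR1+ cells, 464 to 559 and 267 to 402 CPM in MHCII+CD11c- cells, and 309 to 354 and 303 to 354 CPM in MHCII+CD11c+ cells. The treatments did not overlap in the first 2 subsets and overlapped in MHCII+CD11c+ cells. Among the defining markers, Ncmap was at 0 in MHCII+CD11c- cells after IC, Gfra3 was at 0 in both LYVE1+CX3CR1+ and both MHCII+CD11c+ groups and Sox10 was at 0 in both MHCII+CD11c+ groups. The 9 fibroblast genes summed to 648 CPM in untreated LYVE1+CX3CR1+ replicate 1, which also had the highest sterol sum, against 33.2 and 31.2 CPM in the other two libraries of its group and 7.84 to 162 CPM elsewhere. Without this library 8 genes were called over the 3 subsets, with Hmgcs1 lost, and 0 within LYVE1+CX3CR1+ cells, and the sterol sums of this subset still did not overlap.

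The untreated library of each subset highest in the Schwann cell sum was replicate 1 of the LYVE1+CX3CR1+ and MHCII+CD11c- cells and replicate 3 of the MHCII+CD11c+ cells. Without these libraries, 6 genes were called lower over the 3 subsets: Idi1, Fdft1, Lss, Cyp51, Msmo1 and Srebf2. Acat2, Hmgcs1 and Fdps lost their calls (adjusted p = 0.0528, 0.0791 and 0.129), as did Idi1 (0.234) and Srebf2 (0.225) within LYVE1+CX3CR1+ cells, whereas Fdft1 was called within MHCII+CD11c- cells. Without the 2 shallowest libraries (MHCII+CD11c- IC replicates 1 and 2), 8 genes were called lower, with Hmgcs1 (adjusted p = 0.0678) and Fdps (0.0751) lost and Sqle gained.

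The 7 neutrophil genes examined summed to 730 to 1674 CPM before and 1367 to 3536 CPM after IC in MHCII+CD11c- cells and 128 to 603 and 933 to 2075 CPM in MHCII+CD11c+ cells, and to 16.9 to 150 CPM in the 6 LYVE1+CX3CR1+ libraries, with S100a8, Camp and Ngp at 0 in the untreated ones. The 7 monocyte genes summed to 3736 to 5746 CPM before and 5864 to 7514 CPM after IC in LYVE1+CX3CR1+ cells, with Ly6c2, Chil3 and Hp at 0 in the untreated libraries, to 2150 to 5995 and 1491 to 7744 CPM in MHCII+CD11c- cells, and to 5669 to 8553 and 5797 to 7656 CPM in MHCII+CD11c+ cells. The part of these cells in the lower sterol genes was not tested.

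Between subsets, the clearest difference in the whole set was that of Scd1, the stearoyl-CoA desaturase that makes oleate and palmitoleate (chr19:44394455-44407879, - strand). It was at 9.43, 7.52 and 8.08 CPM in untreated LYVE1+CX3CR1+ libraries, at 145, 104 and 126 CPM in untreated MHCII+CD11c- libraries, and at 49.4, 38.8 and 61.7 CPM in untreated MHCII+CD11c+ libraries. The 3 subsets did not overlap. In untreated cells Scd1 was lower in LYVE1+CX3CR1+ than in MHCII+CD11c- cells (log2 difference -3.89, SE 0.35, adjusted p = 1.38e-08) and than in MHCII+CD11c+ cells (-2.58, SE 0.35, adjusted p = 3.46e-06), and was lower in MHCII+CD11c+ than in MHCII+CD11c- cells (-1.32, SE 0.29, adjusted p = 0.00911). The last call was lost without untreated replicate 2 of the MHCII+CD11c+ cells (adjusted p = 0.0674), and the first and second were kept in all 6 fits without 1 library.

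After IC the order of the LYVE1+CX3CR1+ subset was kept. Scd1 was at 1.13, 3.69 and 2.88 CPM in LYVE1+CX3CR1+ libraries, at 49.7, 105 and 119 CPM in MHCII+CD11c- libraries, and at 58.6, 108 and 58.5 CPM in MHCII+CD11c+ libraries. The MHCII+ subsets now overlapped. Scd1 was lower in LYVE1+CX3CR1+ than in MHCII+CD11c- cells (-5.12, SE 0.42, adjusted p = 2.42e-09) and than in MHCII+CD11c+ cells (-4.81, SE 0.41, adjusted p = 1.93e-09). Scd2, its neighbour on chromosome 19, was at 64.1 to 104 CPM in untreated LYVE1+CX3CR1+ libraries and 37.9 to 237 CPM in the untreated MHCII+ libraries, and passed the test in no comparison, although it was called between untreated MHCII+CD11c+ cells and each other subset when no filter on low counts was applied.

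Scd1 is abundant in adipocytes. Of the 9 adipocyte genes examined, Adipoq, Lep, Retn and Cidec were at 0 in untreated LYVE1+CX3CR1+ libraries, Lep and Retn in untreated MHCII+CD11c- libraries and Lep in untreated MHCII+CD11c+ libraries, and the list summed to 18.2 to 24.8, 38.4 to 67.4 and 48.6 to 67.5 CPM in the 3 untreated groups, lowest in the subset with the lowest Scd1. The neutrophil sum ran in the same order of subsets as Scd1 (MHCII+CD11c- above MHCII+CD11c+ above LYVE1+CX3CR1+), and the part of either cell type in the Scd1 levels was not tested.

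Fasn, the fatty acid synthase (chr11:120805846-120824547, - strand), was at 65.4, 44.5 and 59.2 CPM in untreated LYVE1+CX3CR1+ libraries, at 107, 63.6 and 77.6 CPM in untreated MHCII+CD11c- libraries and at 118, 80.9 and 125 CPM in untreated MHCII+CD11c+ libraries. Only the first and last of these groups were apart. It was lower in LYVE1+CX3CR1+ than in MHCII+CD11c+ cells before IC (-0.94, SE 0.29, adjusted p = 0.0178) and after IC (-1.37, SE 0.30, adjusted p = 0.00113), when it was at 28.2, 50.1 and 45.6 against 74.0, 109 and 133 CPM. After IC the MHCII+CD11c- libraries were at 20.9, 41.4 and 68.1 CPM. The call after IC was kept in all 6 fits without 1 library. That before IC was lost without untreated replicate 1 or 3 of the MHCII+CD11c+ cells or replicate 2 or 3 of the LYVE1+CX3CR1+ cells (adjusted p = 0.0543 to 0.112).

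Elovl5, the elongase of polyunsaturated fatty acids (chr9:77917364-77984519, + strand), marked untreated MHCII+CD11c+ cells, at 120, 106 and 92.6 CPM, against 57.3, 51.4 and 74.8 CPM in LYVE1+CX3CR1+ and 58.1, 53.8 and 65.4 CPM in MHCII+CD11c- libraries. The first group lay above the other two, which overlapped. Elovl5 was lower in LYVE1+CX3CR1+ than in MHCII+CD11c+ cells (-0.79, SE 0.21, adjusted p = 0.00554), lost without LYVE1+CX3CR1+ replicate 2 (adjusted p = 0.0538), and higher in MHCII+CD11c+ than in MHCII+CD11c- cells by 0.84 (SE 0.22, adjusted p = 0.0254), kept in 1 of 6 fits without 1 library (adjusted p = 0.0604 to 0.123 in the others). After IC it was at 67.9, 85.7 and 76.2 CPM in MHCII+CD11c+, 67.1, 62.2 and 59.1 CPM in LYVE1+CX3CR1+ and 57.5, 37.6 and 65.1 CPM in MHCII+CD11c- libraries, and passed no test between subsets.

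Insig1 was the only gene of the set called higher in LYVE1+CX3CR1+ cells. At the untreated values given above it exceeded MHCII+CD11c+ cells by 0.64 (SE 0.23, adjusted p = 0.0467), a call kept in 1 of 6 fits without 1 library and with an adjusted p of 0.0853 to 0.222 in the others. The calls in untreated cells thus numbered 1 of 32 between LYVE1+CX3CR1+ and MHCII+CD11c- cells, 4 between LYVE1+CX3CR1+ and MHCII+CD11c+ cells and 2 between the MHCII+ subsets, where 11.4%, 21.8% and 3.49% of all genes were called. No sterol enzyme was among them. The 3 comparisons share their libraries in pairs.

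Without the untreated library of each subset highest in Schwann cell genes, the calls of Scd1 between LYVE1+CX3CR1+ cells and each MHCII+ subset stayed (adjusted p = 3.31e-06 and 0.000336), as did that of Elovl5 between LYVE1+CX3CR1+ and MHCII+CD11c+ cells (0.0326). Those of Fasn (0.0862), Insig1 (0.059), Elovl5 between the MHCII+ subsets (0.0847) and Scd1 between the MHCII+ subsets (0.0524) were lost, and Scd2 was called between LYVE1+CX3CR1+ and MHCII+CD11c+ cells.

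**Figure D5:**
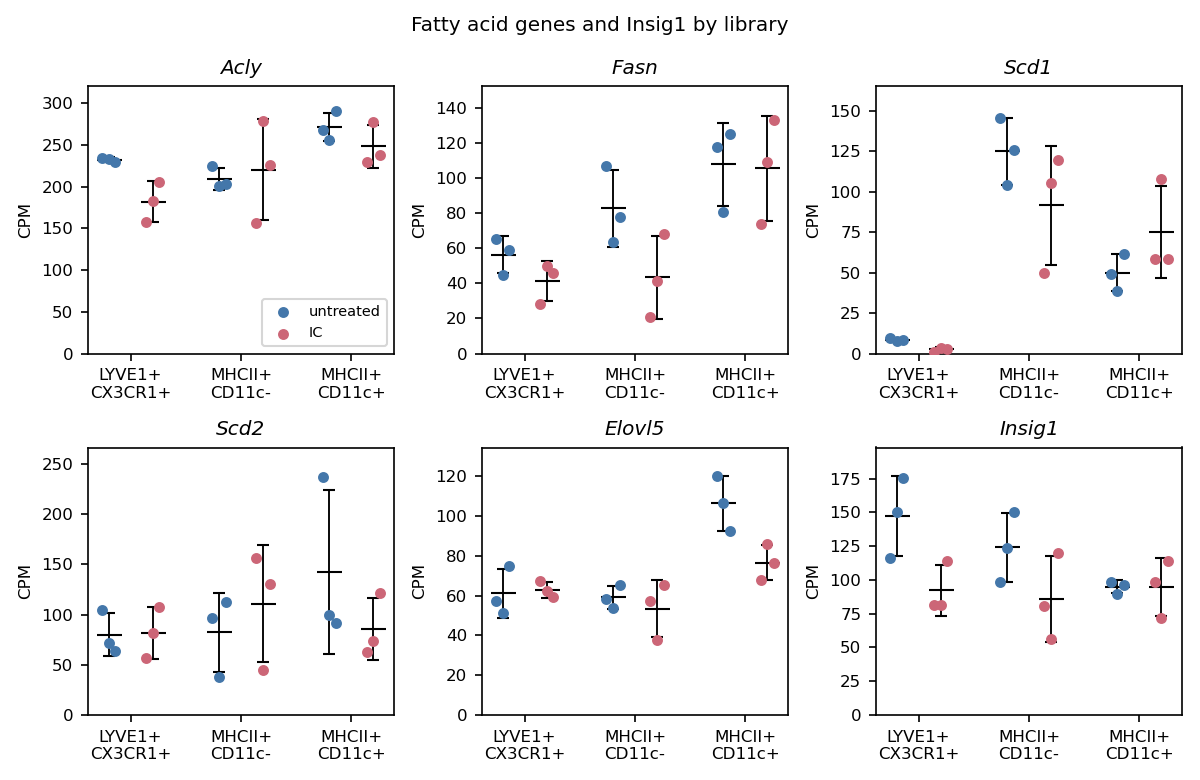
Levels (y axis, CPM) of Acly, Fasn, Scd1, Scd2, Elovl5 and Insig1 in each library by subset (x axis) and treatment (blue, untreated, red, IC), with the mean and SD of 3 libraries. Scd1 is at 1.13 to 9.43 CPM in all 6 LYVE1+CX3CR1+ libraries and at 38.8 CPM or more in the other 12.

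After IC, 1 gene of the set was called between LYVE1+CX3CR1+ and MHCII+CD11c- cells (Scd1, 9.77% of all genes called), 5 between LYVE1+CX3CR1+ and MHCII+CD11c+ cells (19.7% of all genes) and 1 between the MHCII+ subsets (2.84% of all genes). The 5 were Scd1, Fasn, Srebf2, Cyp51 and Acat2, each lower in LYVE1+CX3CR1+ cells. By the values after IC given above, Srebf2 differed (log2 -1.02, SE 0.22, adjusted p = 0.0011), kept in all 6 fits without 1 library. Cyp51 differed (log2 -0.997, SE 0.34, adjusted p = 0.0375) and Acat2 (-1.99, SE 0.69, adjusted p = 0.0411). Each of these last calls was kept in 2 of 6 fits. That of Cyp51 was lost without IC replicate 1 or 2 of the LYVE1+CX3CR1+ cells or replicate 2 or 3 of the MHCII+CD11c+ cells (adjusted p = 0.0708 to 0.218), and that of Acat2 without IC replicate 2 or 3 of the LYVE1+CX3CR1+ cells or replicate 1 or 3 of the MHCII+CD11c+ cells (adjusted p = 0.0873 to 0.214).

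Fdft1 was higher in MHCII+CD11c+ than in MHCII+CD11c- cells after IC by 2.26 (SE 0.60, adjusted p = 0.0377). At 23.1 to 28.0 CPM against 0 to 7.84 CPM the groups were apart, but the lower values rest on 9 counts in 3 libraries and the call was lost in each of the 6 fits without 1 library (adjusted p = 0.0575 to 0.125).

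Per kilobase (kb) of annotated exon, Insig1 and Acly headed the set in untreated LYVE1+CX3CR1+ and MHCII+CD11c- cells, and Acly and Srebf2 in MHCII+CD11c+ cells. In untreated cells Insig1 was at 47.6 ± 9.68 CPM per kb in LYVE1+CX3CR1+, 40.1 ± 8.30 in MHCII+CD11c- and 30.7 ± 1.58 in MHCII+CD11c+ libraries (SD, n = 3). Acly, the ATP citrate lyase, was at 44.1 ± 0.53, 39.7 ± 2.48 and 51.5 ± 3.26 CPM per kb in the same groups. The 2 genes did not differ beyond their spread in the first 2 subsets. Srebf2 was at 26.6 ± 4.74, 23.7 ± 4.34 and 35.0 ± 4.99 CPM per kb, beside Scd1 in MHCII+CD11c- cells at 25.5 ± 4.24 and Elovl5 in MHCII+CD11c+ cells at 30.2 ± 3.94 CPM per kb. The sterol delta8-delta7 isomerase gene Ebp was the first sterol enzyme in each untreated group, at 15.9 ± 2.92, 15.4 ± 5.33 and 16.1 ± 2.66 CPM per kb, but did not differ beyond the spread from the next enzyme (Idi1 at 14.4 ± 2.39, Hmgcs1 at 12.2 ± 4.55 and Cyp51 at 14.4 ± 3.56 CPM per kb). Fads2, Tm7sf2, Lss, Hsd17b7 and Elovl6 stood at the foot, at 0.10 to 1.10 CPM per kb where they ranked among the last 3 of an untreated group.

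Of 30 further genes of the pathway, listed by name, 24 were tested, and over the 3 subsets 1 rose and 1 fell after IC, beside 6.21% of all genes called. The gene that rose was Acot7, a cytosolic acyl-CoA thioesterase, by 1.05 (SE 0.23, adjusted p = 0.00657). It was at 11.5, 11.3 and 14.5 CPM before and 26.5, 25.8 and 27.4 CPM after IC in LYVE1+CX3CR1+ cells, at 30.2, 4.89 and 7.15 CPM before and 49.7, 60.2 and 24.03 CPM after IC in MHCII+CD11c- cells, and at 60.9, 54.6 and 66.1 CPM before and 81.8, 108 and 70.7 CPM after IC in MHCII+CD11c+ cells. The IC libraries lay above the untreated ones in 2 of the 3 subsets. In single subsets 0, 0 and 0 of the 24 rose and 1 fell, in LYVE1+CX3CR1+ cells. In untreated cells Acot7 was also lower in LYVE1+CX3CR1+ than in MHCII+CD11c+ cells (-2.27, SE 0.38, adjusted p = 6.32e-05), and Npc1, the lysosomal cholesterol exporter, was higher by 1.02 (SE 0.31, adjusted p = 0.0177).

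Of 11 genes of the LXR and cholesterol efflux programme, all tested, 3 rose and 1 fell over the 3 subsets after IC, where 6.21% of all genes were called. Nr1h3, which encodes LXR-alpha, rose by 1.85 (SE 0.27, adjusted p = 9.88e-05), and the inducible degrader of lipoprotein receptors Mylip by 0.79 (SE 0.13, adjusted p = 0.000341). The sterol exporter Abcg1 rose by 0.57 (SE 0.13, adjusted p = 0.0066) and, within LYVE1+CX3CR1+ cells, by 1.01 (SE 0.22, adjusted p = 0.0266). Ch25h, the cholesterol 25-hydroxylase, fell by 1.84 (SE 0.50, adjusted p = 0.0254), with 0 to 1.22 CPM after IC in MHCII+CD11c+ cells. Nr1h3 was at 24.9, 22.6 and 31.2 CPM before and 52.4, 55.9 and 43.2 CPM after IC in LYVE1+CX3CR1+ cells, at 11.6, 18.3 and 16.3 CPM before and 60.1, 151 and 39.1 CPM after IC in MHCII+CD11c- cells, and at 13.1, 7.23 and 1.45 CPM before and 49.4, 26.7 and 34.7 CPM after IC in MHCII+CD11c+ cells. Every IC library was above every untreated library of its subset. These differences use the same libraries as those of the sterol genes.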

How the data were processed

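RNA of sorted synovial macrophages was measured in 18 libraries. Per the labels and the study's methods, the authors trimmed paired reads with Trim Galore, checked them with FastQC, aligned them to mm10 with HISAT2 and counted them per gene with featureCounts, and deposited raw counts. Tool versions, annotation and strand setting are not given in the sources used here.

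Groups followed the labels. Libraries held 245903 to 2172358 counts, which limits the precision of low genes, and intervals are not given for single libraries. Genes were filtered with filterByExpr (minimum count 10, minimum total 15), scaled by TMM, and tested with edgeR 4.0.16 (quasi-likelihood F test, R 4.3.3, all 18 libraries, 6 groups, 13 contrasts, Benjamini-Hochberg adjustment within each contrast, threshold 0.05). The floor was 3 counts in a library. Scripts were tested on simulated data. Alternatives were DESeq2 1.42.0, its size factors, other filters, a replicate block, 1 surrogate variable (sva 3.50.0), fewer libraries in the fit and leaving out libraries. Each p-value sets a difference against the spread between these libraries, which are pools of mice.

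The genes and lists were chosen with earlier results of these data known. Genes called in at least 1 contrast and the 5 regulators were given in every library of the groups concerned, and others as counts and ranges.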

Additional observations from a re-analysis of the deposited data

How the results depend on the processing

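Each comparison was refitted under other settings, and values are numbers of genes of the set called. Leaving out 1 library at a time gave 1 to 1 (LYVE1+CX3CR1+ against MHCII+CD11c-, untreated), 1 to 4 (LYVE1+CX3CR1+ against MHCII+CD11c+, untreated), 0 to 2 (MHCII+ subsets, untreated), 1 to 2, 3 to 4 and 0 to 1 (the same comparisons after IC), 0 to 3, 0 to 2 and 0 to 0 (IC within LYVE1+CX3CR1+, MHCII+CD11c- and MHCII+CD11c+ cells) and 7 to 12 (IC over the 3 subsets). Requiring at least 10 counts in every library left 6 genes of the set to test and gave 0, 2 and 1 called in untreated cells, 0, 2 and 0 after IC, 1 for IC in LYVE1+CX3CR1+ cells and 2 for IC over the 3 subsets, fewer because fewer genes were tested. For the MHCII+ subsets after IC (1 called), DESeq2's Wald test, no filter, 1 surrogate variable and each replicate block gave 2, and a fit of only the libraries compared gave 0. For IC in LYVE1+CX3CR1+ cells (2 called), only the libraries compared gave 6. For IC in MHCII+CD11c- cells (0 called), the Wald test gave 1, and no filter and 1 surrogate variable gave 3 each. No filter gave 1 call, Scd1, for the difference in IC response between LYVE1+CX3CR1+ and MHCII+CD11c+ cells. Without the 2 libraries with the fewest counts, a setting chosen after seeing the data, LYVE1+CX3CR1+ against MHCII+CD11c- after IC gave 2, IC in LYVE1+CX3CR1+ cells 4 and IC in MHCII+CD11c- cells 1. Without the untreated library of each subset highest in Schwann cell genes, also chosen after seeing the data, MHCII+CD11c+ against MHCII+CD11c- in untreated cells gave 0, IC in LYVE1+CX3CR1+ cells 0, IC in MHCII+CD11c- cells 1 and IC over the 3 subsets 6. Other causes were not tested. DESeq2 size factors changed no count.

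The 25 called differences kept their call in 319 of 383 alternatives, lost it in 64 and reversed in 0. These alternatives were DESeq2's size factors and Wald test, the block on replicate number and the fits that left out libraries. The other settings named above are not in this count. The labels do not say whether same-numbered libraries come from the same pool of mice. Deviations of same-numbered libraries of a treatment correlated at -0.046 to 0.132 (18 pairs, mean 0.046, 1 over 0.1). Those of same-numbered libraries of different treatments averaged 0.002 (27 pairs). These values do not settle whether the libraries are paired. With the replicate block, 10 genes were called for IC over the 3 subsets (Insig1 beside the 9) and 3 for IC in LYVE1+CX3CR1+ cells (Cyp51 beside the 2). A fit by pool was not run for IC, and a fit of only the libraries compared gives no separate value for IC over the 3 subsets.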
